A study of Homo sapiens with 6 samples.

Results

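Secreted plasma, coagulation and complement proteins form a group of 43 gene symbols, chosen by name because hepatocytes make these proteins for the blood. Earlier results of these data were known when the group was chosen. Of the 43 symbols, 41 were found among the 26389 genes of the deposited count table, on 42 rows, since SERPINA3 has 2 rows; F9 and SAA1 were not analysed here. A test was possible for 40 rows of 39 symbols, out of 14197 genes tested in all, because PLG and LBP had too few reads. The cells were HepG2, a human hepatocellular carcinoma line that keeps much of the hepatocyte's secretory programme. In the shTCTP group (3 libraries), cells were transfected through a lipid reagent with a plasmid that expresses a short hairpin RNA against TCTP, the translationally controlled tumour protein encoded by TPT1. The shCtrl group (3 libraries) received a control hairpin plasmid in the same way. All 6 libraries were made from polyadenylated RNA of 1 cell line, and the series title ties the comparison to liver metabolism and insulin resistance. Whether the 3 libraries of a group stem from separate cultures is not stated in the labels. The p-values therefore describe the spread between these samples alone, and that spread may be technical.

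As background, the liver secretes most of the proteins of blood plasma. Carriers such as albumin and transthyretin bind lipids, hormones and vitamins, the coagulation factors act as a cascade of proteases that ends in fibrin, serpins restrain those proteases, and complement marks microbes for destruction. Many of these genes are kept on in hepatocytes by the transcription factors HNF1 and HNF4, and the acute phase genes among them respond to interleukin-6 and interleukin-1 during inflammation.

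Across the whole set the shTCTP libraries tended to stand lower by a small margin, and no single gene passed the test. Normalised counts (CPM) were scaled with the TMM factors, and fold changes are shTCTP over shCtrl on the log2 scale from the edgeR quasi-likelihood test, called at a Benjamini-Hochberg adjusted p under 0.05 over all 14197 genes. Of the 40 rows tested, 0 were called, against 1.41% of all genes (200 genes, 179 higher and 21 lower), and 11 had an unadjusted p under 0.05, against 11.1% of all genes. All 11 were lower in shTCTP, and over all genes an unadjusted p under 0.05 with a lower level was found for 4.27%. The log2 fold change was negative for 36 of 40 rows, against 50.4% of all genes. It was negative for 31 of 40 on the deposited FPKM, which carry no TMM scaling. There the median over all genes was 0.057 on log2(FPKM + 1) and 0.091 on log2(FPKM + 0.1). The 50.4% is therefore not the share to set beside that count, and the share of all genes on FPKM was not computed. The median log2 fold change of the 40 rows was -0.26, beside -0.0023 over all genes, and the rows ran from -0.57 (CFB) to 0.14 (C1R). With DESeq2, the edgeR test's alternative on the same counts, AHSG (adjusted p = 0.0141) and FGA (adjusted p = 0.0220) were called lower. Over all 14197 genes DESeq2 called 254 higher and 60 lower, more than edgeR did. Other settings that made calls are given in the closing section.

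For 13 of 40 rows every shTCTP library stood below every shCtrl library, against 7.30% of all genes, and for 0 rows every shTCTP library stood above, against 9.83% of all genes. On TMM-scaled CPM, the scale of this count, the 13 rows were AHSG, TTR, FGA, FGG, F7, F10, SERPINA1, SERPIND1, SERPINF2, AGT, CFB, ITIH3 and ITIH4. Without shTCTP library 1 this count was 21, and without shCtrl library 1 it was also 21, beside 12.4% and 15.0% of all genes. Without shTCTP library 2 or 3 it was 13 and 15, beside 12.8% and 12.4%. Without shCtrl library 2 or 3 it was 14 and 18, beside 10.3% and 11.9%. The share of all genes was thus above 7.30% whichever library was left out. On the deposited FPKM, which lack the TMM factors (1.17 for shTCTP library 3, 0.919 to 1.02 for the others), the count was 7, beside 3.41% of all genes. Of the 13 rows only AHSG, TTR, F7, F10 and SERPINF2 (5 rows) were without overlap there too. The 8 others overlapped on FPKM, and the other 2 of the 7 were SERPINC1 and the longer SERPINA3 model, which overlapped on CPM. The lowest of the 6 values was in an shTCTP library for 36 of 40 rows and in shCtrl library 1 for the other 4. The highest was in an shTCTP library for 5 rows and in an shCtrl library for 35. The median of the 40 rows, as a log2 deviation from the shCtrl mean, was -0.17, -0.32 and -0.29 in the shTCTP libraries, against -0.11, 0.058 and -0.0029 in the shCtrl libraries. The 3 shTCTP medians thus lay below the 3 shCtrl medians, with shTCTP library 1 and shCtrl library 1 nearest to each other.

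**Figure D1:**
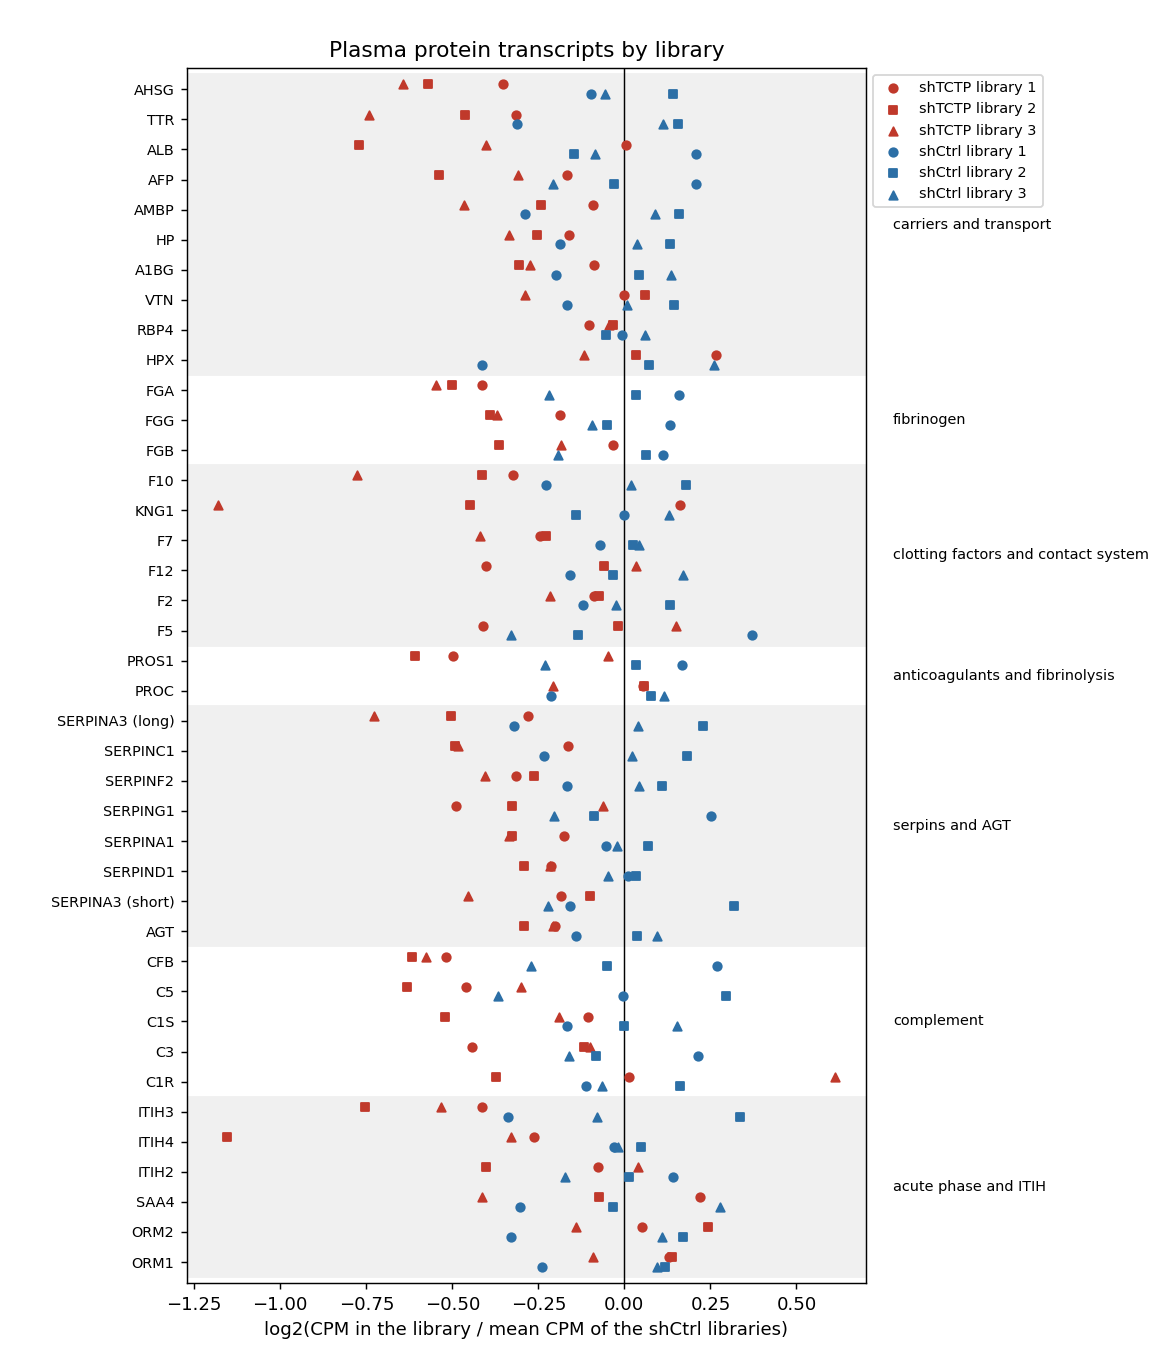
Each row is 1 tested plasma protein gene, grouped by class, and each point is 1 library, placed by the log2 ratio of its CPM to the mean CPM of the shCtrl libraries (red, shTCTP; blue, shCtrl; the vertical line marks the shCtrl mean). SERPINA3 (long) and (short) are its 2 gene models; most red points lie left of the line, and in 13 of 40 rows on this scale all red points lie left of all blue points.

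The 6 libraries held 30486409, 29735626 and 25427614 reads assigned to genes in shTCTP, and 29969485, 30157731 and 30348435 in shCtrl. Library 3 of shTCTP stood apart, its correlation with the others averaging 0.977, against 0.986 to 0.987 for the rest. TPT1, the targeted gene, had 2032, 1807 and 1559 CPM in shTCTP libraries, against 2575, 2249 and 2289.9 CPM in shCtrl libraries, and the groups did not overlap. Its log2 fold change was -0.40 (SE 0.17), a level 75.9% of shCtrl, which did not pass over all genes (edgeR adjusted p = 0.396; exact two-sided permutation p = 0.1, the smallest that 3 against 3 allow). Of 8 hepatocyte lineage markers all were tested and 0 called, with summed levels of 9409 to 14593 CPM in shTCTP and 12110 to 15470 CPM in shCtrl. None of the endothelial markers had enough reads for a test. They summed to at most 0.548 CPM in shTCTP and 0.659 CPM in shCtrl, and blood markers to 6.55 to 9.85 CPM in shTCTP and 8.82 to 11.1 CPM in shCtrl. Mesenchymal markers summed to 52.9 to 58.2 CPM in shTCTP and 47.2 to 51.0 CPM in shCtrl, and bile duct markers to 938 to 1147 CPM in shTCTP and 867 to 973 CPM in shCtrl. Most of these sums came from ACTA2 (mean of 54.1 CPM in shTCTP and 48.2 CPM in shCtrl) and KRT19 (991 CPM in shTCTP and 876 CPM in shCtrl). EPCAM averaged 51.7 CPM in shTCTP and 54.6 CPM in shCtrl. COL1A1, COL3A1, KRT7 and CFTR each averaged at most 0.891 CPM in shTCTP and 0.526 CPM in shCtrl. PTPRC, STAB2 and DCN of these lists were not analysed here. Without shTCTP library 3 the median log2 fold change of the plasma protein genes was -0.24, with 34 of 40 negative and 15 lower without overlap (12.4% of all genes). The part of the marker levels in the results was not tested, and in bulk RNA fewer cells of a type and less RNA per cell cannot be told apart.

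Levels between genes were compared per gene length, on the deposited FPKM. SERPINA1 (alpha-1-antitrypsin, which inhibits neutrophil elastase) was highest in shCtrl, with a mean of 1747 FPKM in shTCTP and 1968 FPKM in shCtrl, rank 48 of 26184 genes in shCtrl. AHSG (fetuin-A) followed with 1452 FPKM in shTCTP and 1937 FPKM in shCtrl, ALB (albumin) with 1264 FPKM in shTCTP and 1511 FPKM in shCtrl, AMBP with 1318 FPKM in shTCTP and 1468 FPKM in shCtrl and the longer SERPINA3 model with 997 FPKM in shTCTP and 1307 FPKM in shCtrl. The spread between libraries was wide next to these steps: ALB had 1504, 909.5 and 1378 FPKM in shTCTP libraries, against 1835, 1347 and 1352 FPKM in shCtrl libraries, so its place among its neighbours differed by library. At the other end, KNG1 (kininogen) had 0.0933 FPKM in shTCTP and 0.113 FPKM in shCtrl, and the order of PLG and LBP below it rests on a few reads. AFP, the fetal albumin-like protein that many liver tumours make again, had 342 FPKM in shTCTP and 401 FPKM in shCtrl.

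**Figure D2:**
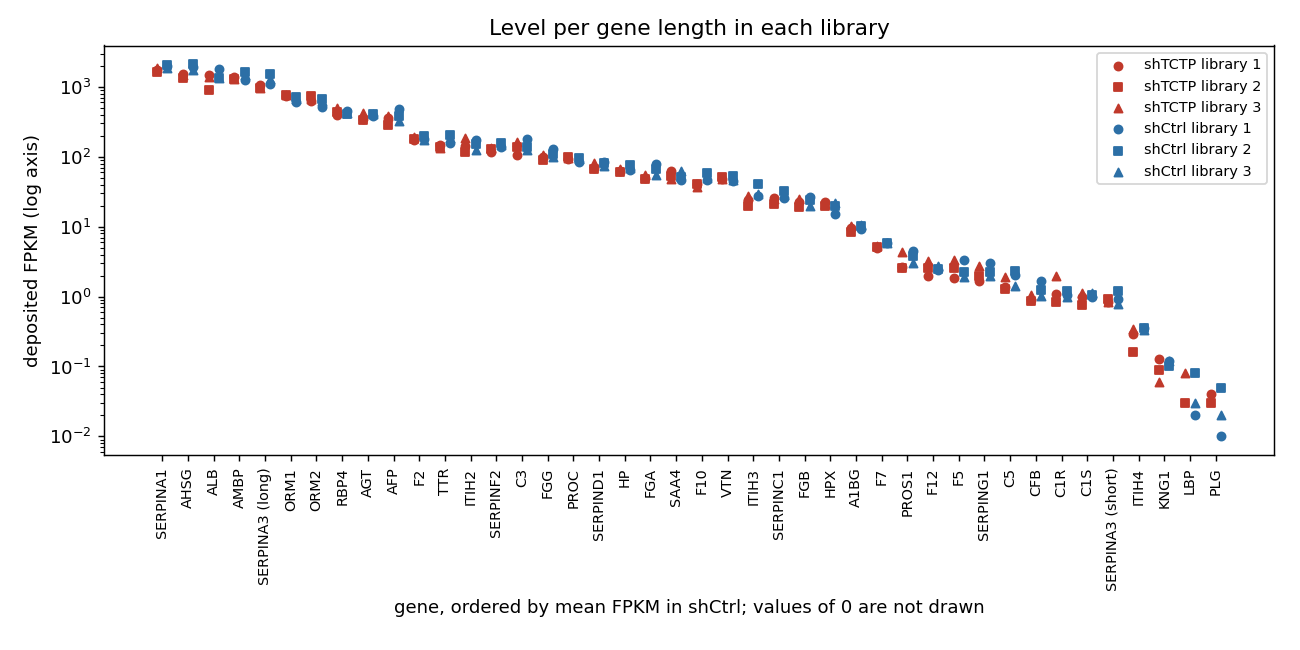
Deposited FPKM (vertical log axis) of each plasma protein gene in each of the 6 libraries, genes ordered from left to right by mean FPKM in shCtrl (red, shTCTP, left; blue, shCtrl, right; values of 0 not drawn). SERPINA1, AHSG and ALB stand at the top and KNG1, LBP and PLG below 1 FPKM at the bottom, and the groups lie close together within a gene.

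Fibrinogen is the soluble precursor of the clot, built from the alpha, beta and gamma chains of 3 neighbouring genes on chromosome 4. FGA had 213, 200.2 and 194 CPM in shTCTP libraries, against 316, 290.1 and 244 CPM in shCtrl libraries. Its groups did not overlap, all 3 shTCTP values lying within a narrow range below the lowest shCtrl value, and its log2 fold change of -0.49 (95% confidence interval -0.78 to -0.20) had the smallest adjusted p of the set (0.110, edgeR). FGG had 226, 196 and 199 CPM in shTCTP libraries, against 283, 249 and 242 CPM in shCtrl libraries, again without overlap, with a log2 fold change of -0.31 (SE of 0.13, edgeR adjusted p = 0.379). FGB, the chain with the lowest level per length (mean of 22.3 FPKM in shTCTP and 23.6 FPKM in shCtrl), had 49.3, 39.1 and 44.3 CPM in shTCTP libraries, against 54.5, 52.6 and 44.0 CPM in shCtrl libraries. Its groups overlapped, and its log2 fold change was -0.19 (SE of 0.14, edgeR adjusted p = 0.671). The median of the 3 chains was -0.31. On the deposited FPKM, FGA had 49.4, 48.2 and 54.8 FPKM in shTCTP libraries, against 78.0, 67.2 and 54.2 FPKM in shCtrl libraries, and there both FGA and FGG overlapped, shTCTP library 3 lying above the lowest shCtrl library.

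On GRCh38 (GENCODE 29 coordinates) FGB lies on the plus strand (ENSG00000171564.11, chromosome 4, 154562956 to 154571086, plus strand), and FGA (ENSG00000171560.14, chromosome 4, 154583126 to 154590766, minus strand) and FGG (ENSG00000171557.16, chromosome 4, 154604134 to 154612967, minus strand) on the minus strand, with gaps of 12.039 kb between FGB and FGA and 13.367 kb between FGA and FGG. Sequences before the RefSeq starts of these genes and of ALB are shown because the fibrinogen chains and albumin are classical examples of liver promoters. They are RefSeq sequences on GRCh38.p14, from 5′ to 3′ on the gene's own strand. They lie at chr4:154590767-154590992 (minus strand) for FGA, chr4:154562730-154562955 (plus strand) for FGB, chr4:154612801-154612827 (minus strand) for FGG and chr4:73404037-73404238 (plus strand) for ALB. Capitals mark matches to a motif on either strand. For FGG only the motif and its flanks are given, which some GENCODE transcripts of the gene hold in an exon. The FGA, FGB and ALB stretches hold no GENCODE exon; that of ALB lies within the span of the gene, in an intron of its longer transcripts.
FGA: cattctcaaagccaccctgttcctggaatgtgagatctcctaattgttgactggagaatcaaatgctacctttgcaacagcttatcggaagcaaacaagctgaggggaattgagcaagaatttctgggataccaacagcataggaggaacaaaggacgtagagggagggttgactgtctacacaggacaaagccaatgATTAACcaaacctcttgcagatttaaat
FGB: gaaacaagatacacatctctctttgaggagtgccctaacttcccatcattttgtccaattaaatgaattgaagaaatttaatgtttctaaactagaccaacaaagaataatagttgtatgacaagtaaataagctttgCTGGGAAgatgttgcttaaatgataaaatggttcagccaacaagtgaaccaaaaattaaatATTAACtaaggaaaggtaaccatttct
FGG: tgtgcaaaatCTGGGAAcctgacagta
ALB: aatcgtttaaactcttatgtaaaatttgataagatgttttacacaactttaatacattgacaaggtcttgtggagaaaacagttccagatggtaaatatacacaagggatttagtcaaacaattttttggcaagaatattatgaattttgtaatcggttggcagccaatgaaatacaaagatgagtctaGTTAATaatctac
The capitals ATTAAC in FGA and FGB and GTTAAT in ALB are the 2 strands of 1 HNF1 motif, and CTGGGAA in FGB and FGG is the interleukin-6 response element. Distances are counted from the RefSeq start of each gene, which lies inside the GENCODE gene by 24 bases for FGA, 24 for FGB, 311 for FGG and 7173 for ALB. The HNF1 motif lay 52 to 47 bases before the start of FGA, 51 to 46 before that of FGB and 61 to 56 before that of ALB. The interleukin-6 element lay 112 to 106 bases before the start of FGB and 161 to 155 before that of FGG. RefSeq windows of 250 bases before the start were matched for 32 genes of the set, F9 and PLG included. GTTAAT or ATTAAC was present in 10 of these 32 (31.2%), against 7.50% of 27305 genes, CTGGGAA or TTCCCAG in 8 of 32 (25%), against 11.1%, and the HNF4 core AAAGTCC or GGACTTT in 4 of 32 (12.5%), against 3.97%. A match in these letters is a description of the window and no measured binding site.

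Carriers and transport proteins bring hormones, vitamins, metals and lipids through the blood. Of the 10 genes of this class, 9 had a negative log2 fold change and 0 were called, with a median of -0.25. Lower levels without overlap were found for 2 of 10, against 7.30% of all genes. AHSG, a glycoprotein that binds calcium phosphate and inhibits the insulin receptor's kinase (ENSG00000145192.12, chromosome 3, 186612923 to 186621318, plus strand), had 2815, 2421 and 2302 CPM in shTCTP libraries, against 3359.9, 3969.8 and 3458 CPM in shCtrl libraries. All shTCTP values were below all shCtrl values, with a log2 fold change of -0.52 (SE of 0.18, edgeR adjusted p = 0.227). TTR, which carries thyroxine and the retinol-binding protein (ENSG00000118271.9, chromosome 18, 31557010 to 31599021, plus strand), had 173, 156 and 128 CPM in shTCTP libraries, against 173, 239 and 232 CPM in shCtrl libraries. The groups only just failed to meet, because the highest shTCTP value (172.6 CPM) lay next to the lowest shCtrl value (172.8 CPM); the log2 fold change was -0.50 (SE of 0.15, edgeR adjusted p = 0.164).

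ALB, the main protein of plasma (ENSG00000163631.16, chromosome 4, 73397114 to 73421412, plus strand), had 3708, 2164 and 2798 CPM in shTCTP libraries, against 4266, 3334 and 3481 CPM in shCtrl libraries. Library 1 of shTCTP lay above libraries 2 and 3 of shCtrl, and the log2 fold change of -0.35 (SE of 0.21) had an edgeR adjusted p of 0.569. AFP, 9.725 kb downstream of ALB, had 853 ± 109 CPM in shTCTP and 1073 ± 156 CPM in shCtrl libraries (SD, n = 3 each). AMBP, the precursor of alpha-1-microglobulin and bikunin, had 1913 ± 245 CPM in shTCTP and 2289 ± 364 CPM in shCtrl libraries (SD, n = 3 each). HP (haptoglobin, which binds free haemoglobin) had 118 ± 7.09 CPM in shTCTP and 139.9 ± 15.5 CPM in shCtrl libraries (SD, n = 3 each), and its reads may be shared with the near-identical HPR. The groups overlapped for all of these, with log2 fold changes of -0.33 for AFP, -0.26 for AMBP and -0.25 for HP. A1BG, a plasma glycoprotein, stood at -0.22 on the log2 scale.

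RBP4, the retinol carrier that travels with transthyretin, had 627, 658 and 654 CPM in shTCTP libraries, against 670.0, 649 and 702 CPM in shCtrl libraries. Its groups overlapped almost fully (log2 fold change -0.06, 95% confidence interval -0.36 to 0.24), unlike those of its partner TTR, and the difference between the 2 genes was not tested. VTN (vitronectin, an adhesion protein) had 107 ± 13.3 CPM in shTCTP and 112 ± 12 CPM in shCtrl libraries (SD, n = 3 each), and HPX (haemopexin, the haem carrier) had 35.4 ± 4.79 CPM in shTCTP and 33.8 ± 7.70 CPM in shCtrl libraries (SD, n = 3 each). Their log2 fold changes of -0.069 and 0.069 changed sign with 1 library left out. That of VTN was 0.038 without shTCTP library 3 and 0.007 without shCtrl library 2, and that of HPX was -0.041 without shTCTP library 1 and -0.10 without shCtrl library 1. RBP4 and VTN also had positive values on the deposited FPKM.

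Clotting factors and the contact system held 6 tested genes, all with negative log2 fold changes, of which 0 were called (median -0.21). Lower levels without overlap were found for 2 of 6, against 7.30% of all genes. F10 encodes factor X, the protease at which the intrinsic and extrinsic pathways meet (ENSG00000126218.11, chromosome 13, 113122814 to 113149529, plus strand), and had 68.6, 64.4 and 50.0 CPM in shTCTP libraries, against 73.3, 97.3 and 87.0 CPM in shCtrl libraries. The third shTCTP library was lowest and the groups did not overlap (log2 fold change -0.49, SE 0.15, edgeR adjusted p = 0.152). F7, the start of the extrinsic pathway, ends 2.132 kb before F10 on the same strand of chromosome 13, and had 16.8, 17.0 and 14.9 CPM in shTCTP libraries, against 19.0, 20.3 and 20.5 CPM in shCtrl libraries. Here too all shTCTP values lay below all shCtrl values, by a smaller log2 fold change of -0.29 (SE of 0.14, edgeR adjusted p = 0.459).

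F2 (prothrombin), the clotting factor with the highest level per length (mean of 183 FPKM in shTCTP and 185 FPKM in shCtrl), had 382, 385 and 349 CPM in shTCTP libraries, against 373, 445 and 399 CPM in shCtrl libraries. Its groups overlapped, with a log2 fold change of -0.12 (95% confidence interval -0.42 to 0.17). F12, which starts the contact pathway, had 5.21 ± 0.798 CPM in shTCTP and 5.71 ± 0.663 CPM in shCtrl libraries (SD, n = 3 each), with a log2 fold change of -0.13. F5, the cofactor of factor X, had 18.0 ± 3.43 CPM in shTCTP and 18.9 ± 4.94 CPM in shCtrl libraries (SD, n = 3 each). Its log2 fold change of -0.075 was 0.066 without shTCTP library 1 and 0.15 without shCtrl library 1, and positive on FPKM. KNG1, the source of bradykinin, had 15, 10 and 6 reads in shTCTP and 14, 12 and 14 reads in shCtrl libraries, too few for a narrow estimate (log2 fold change -0.39, 95% confidence interval -1.37 to 0.59).

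Of the genes that limit clotting or dissolve it, PROC and PROS1 were tested, and neither was called. PROC, whose product protein C cuts the activated factors V and VIII, had 197, 198 and 165 CPM in shTCTP libraries, against 164, 200.0 and 205 CPM in shCtrl libraries. The groups overlapped (log2 fold change -0.026, 95% confidence interval -0.32 to 0.27), and the sign was positive without shTCTP library 3 (0.064), shCtrl library 2 (0.011) or shCtrl library 3 (0.032), and on FPKM. PROS1, the cofactor of protein C, had 11, 10.2 and 15.0 CPM in shTCTP libraries, against 17.4, 15.9 and 13.2 CPM in shCtrl libraries. Library 3 of shTCTP lay above the lowest shCtrl library, and the log2 fold change was -0.36 (SE of 0.18, edgeR adjusted p = 0.467). PLG, the precursor of the fibrin-cutting enzyme plasmin, had 0 to 5 reads in a library and was not tested.

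Serpins, the family of suicide inhibitors of serine proteases, and AGT, a serpin by fold whose product is cut to angiotensin, made up 8 tested rows. All 8 had negative log2 fold changes and 0 were called (median -0.28). Lower levels without overlap were found for 4 of 8, against 7.30% of all genes. SERPINA1 (ENSG00000197249.12, chromosome 14, 94376747 to 94390693, minus strand) had 7623, 6871 and 6819 CPM in shTCTP libraries, against 8303, 9036 and 8489.6 CPM in shCtrl libraries. The groups did not overlap, and the log2 fold change was -0.28 (SE of 0.19, edgeR adjusted p = 0.634). SERPINF2, the inhibitor of plasmin, had 304, 315 and 286 CPM in shTCTP libraries, against 337, 408 and 389.7 CPM in shCtrl libraries, with no overlap and a log2 fold change of -0.33 (SE of 0.14). SERPIND1, or heparin cofactor II, had 189.7, 179 and 189 CPM in shTCTP libraries, against 222, 225 and 213 CPM in shCtrl libraries. The groups did not overlap on this scale, with a log2 fold change of -0.24 (SE of 0.12). On the deposited FPKM, SERPIND1 had 68.3, 67.0 and 82.8 FPKM in shTCTP libraries, against 84.6, 80.8 and 73.4 FPKM in shCtrl libraries, with overlap. AGT had 873, 820.1 and 869 CPM in shTCTP libraries, against 911, 1028 and 1070.4 CPM in shCtrl libraries, also without overlap, with a log2 fold change of -0.23 (SE of 0.15). SERPINA1 and AGT overlapped on FPKM, and SERPINF2 did not.

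SERPINC1 (antithrombin, the main inhibitor of thrombin) had 44.7, 35.6 and 35.8 CPM in shTCTP libraries, against 42.6, 56.9 and 50.9 CPM in shCtrl libraries. Its first shTCTP library lay above its first shCtrl library, so the groups overlapped on CPM, though not on FPKM, at a log2 fold change of -0.37 (SE of 0.15, edgeR adjusted p = 0.331). SERPINA3 (alpha-1-antichymotrypsin) is counted on 2 overlapping gene models of the same strand of chromosome 14, and the longer one (ENSG00000273259.2, chromosome 14, 94592058 to 94624646, plus strand, named AL049839.2 in GENCODE 29) held 99.7% to 99.8% of the reads of both. The longer model had 1861, 1592 and 1365 CPM in shTCTP libraries, against 1809, 2647 and 2321 CPM in shCtrl libraries, with overlap between the first libraries on CPM and none on FPKM (log2 fold change -0.49, SE 0.19, edgeR adjusted p = 0.305). The shorter model (ENSG00000196136.16, chromosome 14, 94612377 to 94624055, plus strand) had 3.73 ± 0.465 CPM in shTCTP and 4.39 ± 0.944 CPM in shCtrl libraries (SD, n = 3 each). How reads were divided over the shared 11679 bases is not given in the sources used here, so both values are uncertain. SERPING1, the C1 inhibitor, had 5.31 ± 0.807 CPM in shTCTP and 6.45 ± 1.09 CPM in shCtrl libraries (SD, n = 3 each), with a log2 fold change of -0.28 and overlapping groups.

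Complement was represented by 5 genes, of which 4 had a negative log2 fold change and 0 were called (median -0.26). Lower levels without overlap were found for 1 of 5, against 7.30% of all genes. C3, on which the complement pathways converge and the complement gene with the highest level per length, had 613, 768 and 776 CPM in shTCTP libraries, against 965, 786 and 744 CPM in shCtrl libraries. The first shTCTP library was lowest and the first shCtrl library highest, while the other 4 values lay close together, and the log2 fold change was -0.21 (SE of 0.16, edgeR adjusted p = 0.692). CFB (factor B of the alternative pathway, ENSG00000243649.8, chromosome 6, 31945650 to 31952084, plus strand) had 2.81, 2.62 and 2.70 CPM in shTCTP libraries, against 4.85, 3.88 and 3.34 CPM in shCtrl libraries, without overlap. Its log2 fold change of -0.57 (SE of 0.22, edgeR adjusted p = 0.305) was the lowest of the set, on a low level, and its groups overlapped on FPKM. C5, which starts the membrane attack complex, had 8.22, 7.30 and 9.19 CPM in shTCTP libraries, against 11.3, 13.9 and 8.76 CPM in shCtrl libraries, with the third shTCTP library above the third shCtrl library (log2 fold change -0.46, SE 0.19, edgeR adjusted p = 0.363).

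C1R and C1S, the proteases of the first complement complex, are neighbours on chromosome 12 (9.166 kb apart). C1R had 3.25, 2.49 and 4.93 CPM in shTCTP libraries, against 2.98, 3.61 and 3.09 CPM in shCtrl libraries. The third shTCTP library was highest and the second lowest of all 6, and the log2 fold change of 0.14 was -0.16 without shTCTP library 3. C1S had 3.50 ± 0.513 CPM in shTCTP and 4.20 ± 0.464 CPM in shCtrl libraries (SD, n = 3 each), with a log2 fold change of -0.26 and overlapping groups.

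Acute phase genes and the heavy chains of inter-alpha-trypsin inhibitor, several of which are carried on hyaluronan, gave 6 tested genes. Of these 4 had a negative log2 fold change and 0 were called (median -0.10). Lower levels without overlap were found for 2 of 6, against 7.30% of all genes. The class does not hold every acute phase gene of the set: fibrinogen, HP, SERPINA1 and SERPINA3 were counted in other classes. ITIH3 (ENSG00000162267.12, chromosome 3, 52794768 to 52809009, plus strand) had 80.6, 63.7 and 74.2 CPM in shTCTP libraries, against 84.9, 135 and 102 CPM in shCtrl libraries. The groups did not overlap, at a log2 fold change of -0.56 (SE of 0.16, edgeR adjusted p = 0.125). ITIH4, 3.965 kb from ITIH3 on the opposite strand of chromosome 3, had 1.06, 0.572 and 1.01 CPM in shTCTP libraries, against 1.25, 1.32 and 1.26 CPM in shCtrl libraries. It did not overlap either, but at about 1 CPM its estimate was wide (log2 fold change -0.53, 95% confidence interval -1.22 to 0.16). ITIH2 had 473 ± 72.5 CPM in shTCTP and 519 ± 56.1 CPM in shCtrl libraries (SD, n = 3 each), with overlapping groups and a log2 fold change of -0.13. On the deposited FPKM the groups of ITIH3 and ITIH4 overlapped as well.

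ORM1 and ORM2 encode the acid glycoproteins, which bind basic drugs in plasma, from near-identical copies 3.393 kb apart on chromosome 9, so reads may be divided between them in error. ORM1 had 638, 641 and 547 CPM in shTCTP libraries, against 494, 633 and 622 CPM in shCtrl libraries. Its groups overlapped, with shCtrl library 1 lowest. On the deposited FPKM, without TMM scaling, ORM1 had 731, 762 and 762 FPKM in shTCTP libraries, against 601, 723 and 683 FPKM in shCtrl libraries, and there all shTCTP values lay above all shCtrl values. ORM2 had 522 ± 69.1 CPM in shTCTP and 500.5 ± 89.3 CPM in shCtrl libraries (SD, n = 3 each). The log2 fold changes were 0.062 for ORM1 and 0.06 for ORM2. Without shCtrl library 1 they were -0.045 and -0.081, and without shTCTP library 2 that of ORM2 was -0.053. SAA4, the constitutive serum amyloid A, which shares sequence with a readthrough transcript of SAA2, had 48.1 ± 10.4 CPM in shTCTP and 50.3 ± 10.2 CPM in shCtrl libraries (SD, n = 3 each). Its log2 fold change of -0.066 was 0.089 without shTCTP library 3 and 0.094 without shCtrl library 3, and positive on FPKM. LBP, which binds bacterial lipopolysaccharide, had 0 to 5 reads in a library.

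**Figure D3:**
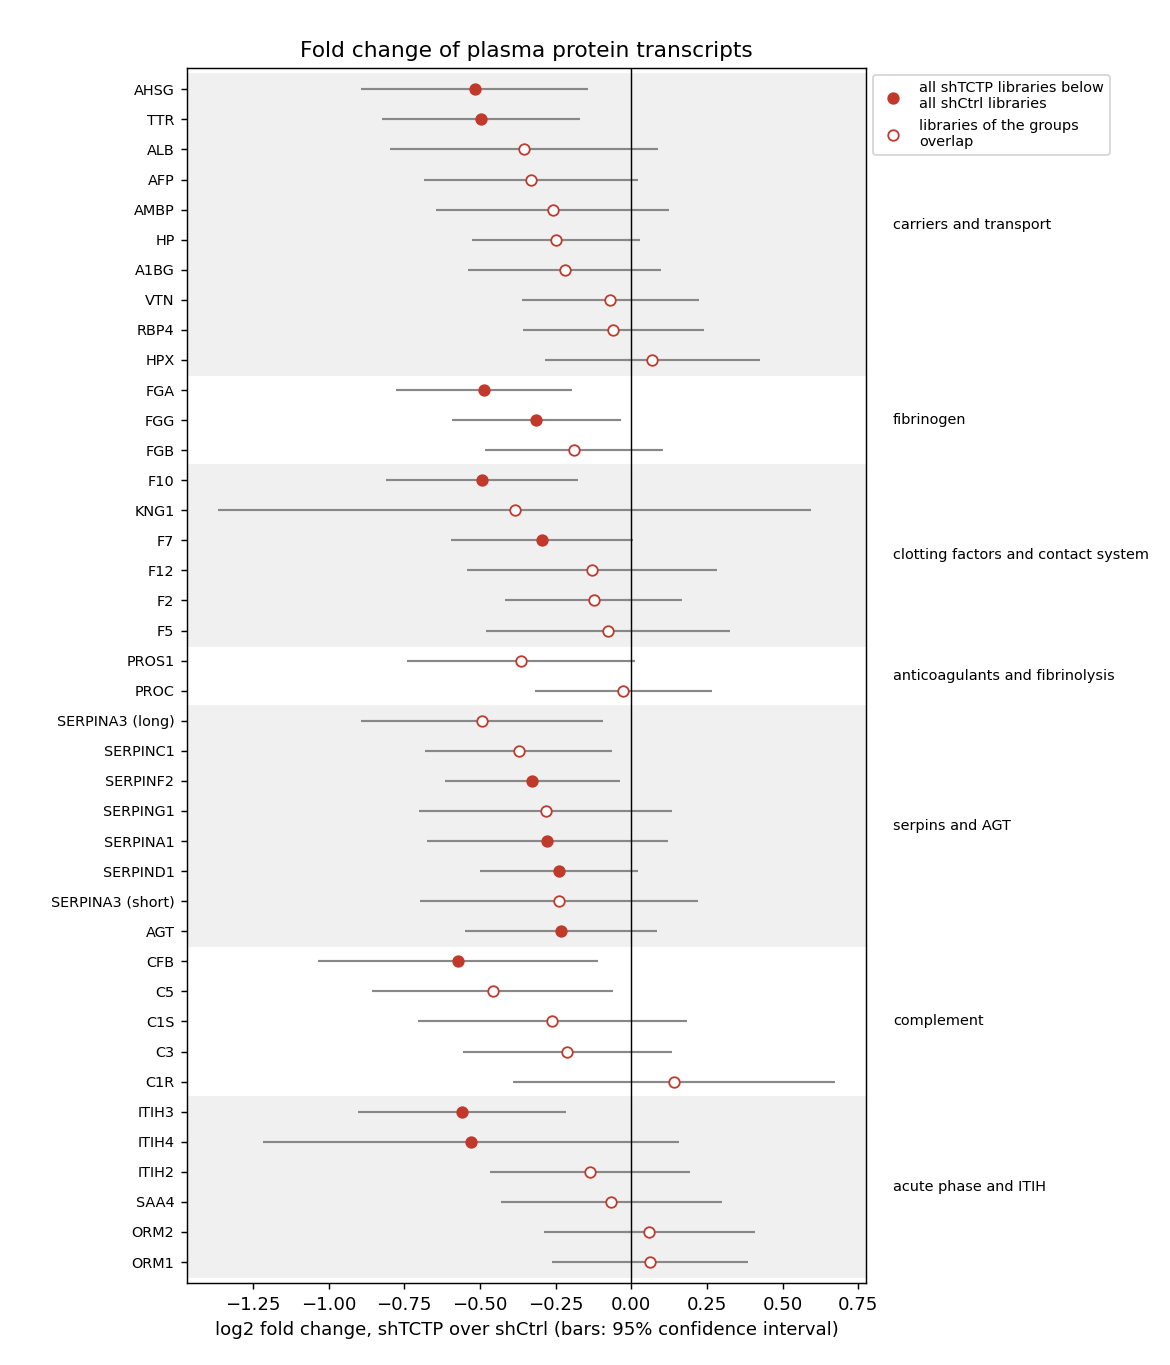
Log2 fold change of each tested plasma protein gene, shTCTP over shCtrl, from the edgeR quasi-likelihood test, with its 95% confidence interval (n = 3 libraries a group). Filled points mark the 13 genes whose shTCTP libraries all lie below all shCtrl libraries on TMM-scaled CPM (5 of them also on FPKM); most points lie between 0 and -0.57, and C1R, HPX, ORM1 and ORM2 lie above 0.

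Taken as a share of all reads assigned to genes, the plasma protein genes made up 2.42%, 2.18% and 2.53% of the shTCTP libraries (mean 2.38% ± 0.177, SD, n = 3), against 2.79%, 2.84% and 2.56% of the shCtrl libraries (2.73% ± 0.145, SD, n = 3). The highest shTCTP share, in the third library, lay just below the lowest shCtrl share, also in the third library. Serpins and AGT took 1.05% ± 0.0665 of the reads in shTCTP and 1.21% ± 0.0680 in shCtrl, and carriers and transport proteins took 0.957% ± 0.105 in shTCTP and 1.14% ± 0.0739 in shCtrl (SD, n = 3 each). The class of acute phase genes and ITIH chains, without fibrinogen, HP, SERPINA1 and SERPINA3, took 0.179% ± 0.0112 in shTCTP and 0.169% ± 0.0112 in shCtrl. Anticoagulants and fibrinolysis took 0.0205% ± 0.000541 in shTCTP and 0.0197% ± 0.00115 in shCtrl, both classes higher in mean in shTCTP (SD, n = 3 each). All these shares carry no TMM scaling, unlike the log2 fold changes, which were -0.026 for PROC and -0.36 for PROS1. Fibrinogen took 0.0471% ± 0.00371 in shTCTP and 0.0572% ± 0.00897 in shCtrl, clotting factors 0.0490% ± 0.00241 in shTCTP and 0.0516% ± 0.00390 in shCtrl, and complement 0.0771% ± 0.0162 in shTCTP and 0.0828% ± 0.0159 in shCtrl (SD, n = 3 each). ALB alone took 0.299% ± 0.0731 in shTCTP and 0.357% ± 0.0663 in shCtrl, and without ALB the set took 2.08% ± 0.120 in shTCTP and 2.37% ± 0.137 in shCtrl (SD, n = 3 each). Mitochondrially encoded messages, which share the same total, took 8.43%, 8.61% and 6.63% of the shTCTP and 10.8%, 8.71% and 10.3% of the shCtrl libraries, and their part in the shares was not tested. Of the reads of nuclear genes alone, the set took 2.58% in shTCTP and 3.03% in shCtrl.

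**Figure D4:**
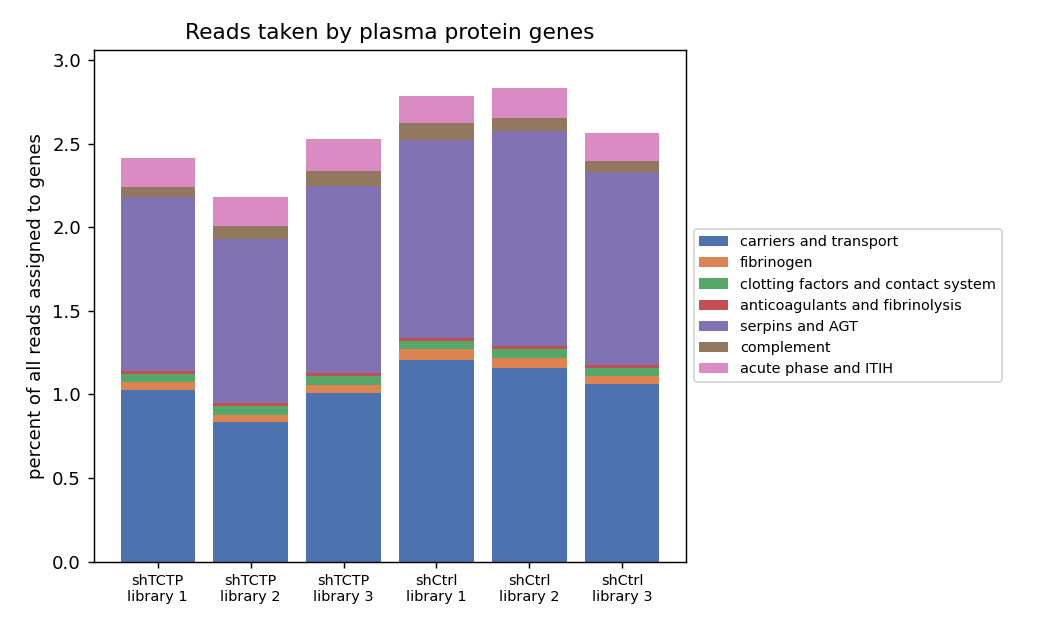
Percent of all reads assigned to genes that fell on the plasma protein genes in each library, stacked by class (1 bar a library, shTCTP at the left, shCtrl at the right). The shTCTP bars reach 2.18% to 2.53% and the shCtrl bars 2.56% to 2.84%, and carriers and serpins make up most of each bar.

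Other plasma protein genes, listed apart from the 43, were set beside them. This list too was chosen with earlier results of these data known, so it is no independent check of the 43. Of 56 listed 36 were tested, 0 were called higher and 1 was called lower, against 1.26% and 0.148% of all genes. The median of the 36 was -0.26, and 32 had a negative log2 fold change, against 50.4% of all genes. For 11 of 36 the groups did not overlap, all lower, against 7.30% of all genes. The 1 gene called was CP (ceruloplasmin, the copper-carrying ferroxidase), which fell to 19.6, 12.7 and 17.7 CPM in shTCTP libraries, against 30.5, 35.3 and 21.8 CPM in shCtrl libraries. Its log2 fold change was -0.81 (SE of 0.19, edgeR adjusted p = 0.0440), and on CPM all shTCTP values lay below all shCtrl values. On the deposited FPKM the groups of CP overlapped, with 3.86, 2.60 and 4.23 FPKM in shTCTP libraries, against 6.36, 6.92 and 4.10 FPKM in shCtrl libraries. CP missed the threshold without shTCTP library 2 (adjusted p = 0.186), shCtrl library 1 (0.207) or shCtrl library 2 (0.311). It also missed it with the replicate number as a block (0.0622), with limma voom (0.0637) and with limma on log2(FPKM + 1) or log2(FPKM + 0.1) (0.309 and 0.266).

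Genes that modify or export these proteins, such as GGCX and VKORC1 of the vitamin K cycle and the COPII coat, were tested for 25 of 26 listed. None was called, 12 had positive and 13 negative log2 fold changes, and the median was -0.018. The 2 with the smallest p were FURIN, the protease that removes propeptides in the Golgi, and SEC24D, a cargo adaptor of the coat. FURIN had 181 ± 28.0 CPM in shTCTP and 142 ± 11.6 CPM in shCtrl libraries (SD, n = 3 each), with a log2 fold change of 0.35 and an edgeR adjusted p of 0.357. SEC24D had 21.7 ± 2.87 CPM in shTCTP and 25.7 ± 3.67 CPM in shCtrl libraries (SD, n = 3 each), with a log2 fold change of -0.25 and an edgeR adjusted p of 0.597. An unadjusted edgeR p under 0.05 was found for 1 of the 25, FURIN, against 11.1% of all genes.

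Receptors, kinases and transcription factors that control acute phase and hepatocyte genes were tested for 23 of 24 listed, and none was called. Their median was 0.19, 14 had a positive and 9 a negative log2 fold change, and 1 of 23 had an unadjusted edgeR p under 0.05, against 11.1% of all genes. That gene was IL6R, the receptor chain for interleukin-6, which had 30.8, 26.6 and 32.8 CPM in shTCTP libraries, against 21.7, 22.3 and 20.1 CPM in shCtrl libraries. All shTCTP values lay above all shCtrl values (log2 fold change 0.49, SE 0.14, edgeR adjusted p = 0.112). NFKB1, a subunit of NF-kappaB, had 28.3 ± 4.46 CPM in shTCTP and 22.8 ± 3.85 CPM in shCtrl libraries (SD, n = 3 each), with a log2 fold change of 0.31 (edgeR adjusted p = 0.491).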

How the data were processed

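The authors deposited raw read counts per gene and FPKM per gene for the 6 libraries. The submitters' processing notes name GRCh38, TopHat2, bcl2fastq and edgeR without versions. How annotation, counting and strand were set is not given in the sources used here. Libraries were directional and paired, per the labels' protocols, and the depth of 25427614 to 30486409 reads limits the precision for genes with few reads, such as KNG1 and ITIH4.

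Counts were tested over the whole table with edgeR 4.0.16 in R 4.3.3 (quasi-likelihood, robust), keeping genes that pass filterByExpr, scaling by TMM and modelling group alone. Benjamini-Hochberg adjusted p-values under 0.05 were called. Standard errors were derived from the estimate and its F statistic. CPM were scaled with the TMM factors, and the deposited FPKM were used without further scaling. The procedure was tested on simulated data. Coordinates came from GENCODE 29, and promoter sequences from RefSeq (GRCh38.p14).

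The plasma protein genes and the further lists were chosen with earlier results of these data known. Values in every library are given for genes whose groups do not overlap, for the highest in FPKM and the 2 with the smallest p of each class, and for TPT1; from each further list the genes called, or the 2 with the smallest p, are named. ALB, RBP4, C1R and others are shown in addition. Alternatives were RLE scaling, no filter on low counts, DESeq2 1.42.0, limma 3.58.1 (voom, and log2 FPKM with pseudocounts of 1 and 0.1), a block for replicate number, a loess correction for gene length (span 0.3) and each library left out in turn. Lengths came from counts over FPKM and covered 99.1% of tested genes. Within a group, chi-square per degree of freedom between libraries was 13.9 to 85.7, above sampling noise, so none was taken as deposited more than once. The labels name no batch. Figures were drawn with matplotlib 3.10.9.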

Additional observations from a re-analysis of the deposited data

How the results depend on the processing

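Of 40 plasma protein genes, 36 had a negative log2 fold change under RLE scaling, no filter, the replicate block, DESeq2, voom and the length correction, and 31 did on FPKM; 35 of 40 kept their sign in all settings with 6 libraries and 31 in all settings. Genes called lower among the set were 2 without a filter (F10, adjusted p = 0.0495, and ITIH3, 0.0119), 2 with DESeq2 (AHSG, 0.0141, and FGA, 0.0220) and 1 with the length correction (FGA, 0.0395), and 0 with any 1 library left out. The median of the set was -0.12 on log2(FPKM + 1) and -0.15 on log2(FPKM + 0.1), where the median of all genes was 0.057 and 0.091. The count of plasma protein genes lower without overlap was 7 on the deposited FPKM, beside 3.41% of all genes. With 1 library left out this count was 13 to 21, beside 10.3% to 15.0% of all genes. Among all genes, the number called higher was 111 with the replicate block and 76 to 300 with 1 library left out. The number called lower was 71 without a filter, 60 with DESeq2, 6 and 11 on FPKM with pseudocounts of 1 and 0.1, 45 with the length correction and 3 to 43 with 1 library left out. Among the other plasma protein genes 2 were called lower without a filter, 0 with the replicate block, voom or FPKM with either pseudocount, and 0 to 1 with 1 library left out; CP then had an adjusted p of 0.0622 (block), 0.0637 (voom), 0.309 and 0.266 (FPKM). Of reads of nuclear genes only, the set took 2.58% in shTCTP and 3.03% in shCtrl. Log2 fold changes with the opposite sign were found on FPKM with pseudocounts of 1 and 0.1 for RBP4 (0.045 in both), VTN (0.033 and 0.034), F5 (0.030 and 0.041), PROC (0.079 and 0.080) and SAA4 (0.035 in both). With 1 library left out the ranges were -0.10 to 0.22 for HPX, -0.15 to 0.038 for VTN, -0.22 to 0.15 for F5, -0.12 to 0.064 for PROC, -0.16 to 0.33 for C1R, -0.045 to 0.14 for ORM1, -0.081 to 0.16 for ORM2 and -0.23 to 0.094 for SAA4. The cause of these shifts was not tested. No sign of pairing by replicate number was seen: deviations of libraries with the same number correlated at -0.23, 0.0015 and -0.20, and none correlated best with its own number. With 3 libraries a group, deviations from the group mean depend on one another, so whether the libraries were paired cannot be settled by them. The block is therefore given as an alternative only. Genes with few reads, such as KNG1 and ITIH4, could have differed by more than their values show at this depth.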

Other observations

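Ratios of deposited FPKM between genes of the set within a library need no scaling between libraries, and 7 were computed. FGA over FGB was 2.16, 2.55 and 2.19 in shTCTP libraries, against 2.90, 2.75 and 2.76 in shCtrl libraries, and for this 1 ratio of 7 the groups did not overlap. FGG over FGB was 4.31, 4.71 and 4.22 in shTCTP libraries, against 4.87, 4.44 and 5.15 in shCtrl libraries, with overlap. ALB over AFP, the adult over the fetal albumin, was 4.25, 3.21 and 3.54 in shTCTP libraries, against 3.77, 3.48 and 4.10 in shCtrl libraries. ORM1 over ORM2 ran from 1.03 to 1.16 in shTCTP and from 1.06 to 1.18 in shCtrl libraries. The ratios were not tested, and no share over other pairs of genes was computed against which to read 1 of 7. FGA and FGB also differ in length derived from counts over FPKM (4127 and 2060 bases). The part of gene length in their ratio was not tested.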
